A study of Mus musculus with 22 samples.

Results

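The response of the left ventricle to pressure load was compared between mice that carried a VCP transgene (VCP TG) and wild type (WT) mice. For each gene the load response is the mean after transverse aortic constriction (TAC) minus the mean after the sham operation, on the log2(TPM + 1) scale, and the quantity of interest is the VCP TG response minus the WT response. The comparison used 15 of the 22 libraries of the study, those of 1 deposited table, and the 9035 of 30735 listed genes that reached 5 TPM in at least 3 of these libraries. There were 3 VCP TG TAC, 4 VCP TG sham, 4 WT TAC and 4 WT sham libraries. TAC hearts were taken 2 weeks after surgery, and the labels of the sham hearts in the same table give no time. All came from left ventricles of FVB mice aged 3 to 5 months. The promoter that drives the transgene and the number of founder lines are not given in the sources used here. Whether each library is a separate animal is not stated, so p-values measure the spread between libraries, which may be technical.

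VCP (valosin-containing protein, p97) is a hexameric ATPase that pulls ubiquitin-tagged proteins out of membranes and complexes and hands them to the proteasome, and it also serves autophagy, mitochondrial quality control and protein clearance from the endoplasmic reticulum. TAC narrows the aortic arch, so that the left ventricle has to pump against a higher pressure. The loaded mouse heart enlarges its muscle cells, and its RNA typically moves from the adult programme of fatty acid oxidation, ion channels and alpha-myosin towards natriuretic peptides and fetal contractile proteins.

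The 15 libraries were unequal in ways that touch the results below. The median gene had an SD on the log2(TPM + 1) scale of 0.17 among VCP TG TAC, 0.64 among VCP TG sham, 0.20 among WT TAC and 0.32 among WT sham libraries. VCP TG sham libraries 3 and 4 lay at opposite ends: the share of TPM from mitochondrially encoded genes was 27.9% in library 3 and 72.9% in library 4, and 9643 and 5086 genes reached 5 TPM in them. Olfactory and vomeronasal receptor genes, which heart muscle does not use, served as a measure of background. The mean level of these 1462 genes was 0.842, 0.310 and 0.448 TPM in VCP TG TAC libraries 1, 2 and 3, 0.056 to 0.291 TPM in VCP TG sham, 0.109 to 0.197 TPM in WT TAC and 0.044 to 0.073 TPM in WT sham libraries. All 12 ventricular muscle markers were measured, with a summed level of 29632 to 36713 TPM in VCP TG TAC, 21540 to 47582 TPM in VCP TG sham, 26991 to 35016 TPM in WT TAC and 30399 to 44420 TPM in WT sham libraries. TPM holds no read numbers, so the depth of the libraries is unknown.

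No gene passed the test of the difference in load response (limma with Benjamini-Hochberg adjustment over 9035 genes, 0% called), and the smallest adjusted p was 0.663. At an unadjusted p under 0.05 there were 405 genes (4.48%), of which 289 (3.2%) had a higher response in VCP TG hearts and 116 (1.28%) a lower one. The median standard error of the difference was 0.43 on the log2 scale. Within VCP TG hearts 6 genes rose under load and none fell (0.0664% called), while 501 had an unadjusted p under 0.05 (5.55%), 428 higher (4.74%) and 73 lower (0.808%). Within WT hearts no gene passed (0% called, smallest adjusted p 0.0518), although 1274 had an unadjusted p under 0.05 (14.1%), 286 higher (3.17%) and 988 lower after TAC (10.9%). When the WT libraries were fitted without the VCP TG libraries, 975 of 8032 genes fell (12.1%) and 122 rose (1.52%). The same fit of the VCP TG libraries alone gave 11 calls. Leaving out 1 library at a time from the joint fit gave 0 calls in VCP TG hearts without VCP TG TAC library 1 and 301 without VCP TG sham library 3, and 0 to 1121 in WT hearts, the most without VCP TG sham library 4.

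The count of differences depended on how the libraries were weighted. When limma estimated a weight for each library, which gave VCP TG sham library 4 a weight of 0.0557 and VCP TG sham library 3 a weight of 0.255, 145 genes passed (1.6%), 50 with a higher response in VCP TG hearts (0.553%) and 95 with a lower one (1.05%). Weights estimated per group in place of per library gave 0 calls, with 448 genes at an unadjusted p under 0.05. The median difference over all tested genes was 0.21 on the log2 scale, made up of a median response of -0.03 in VCP TG and -0.19 in WT hearts. That median was 0.00 after quantile normalization, -0.09 after rescaling to nuclear protein-coding genes and -0.06 without VCP TG sham library 4.

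**Figure D1:**
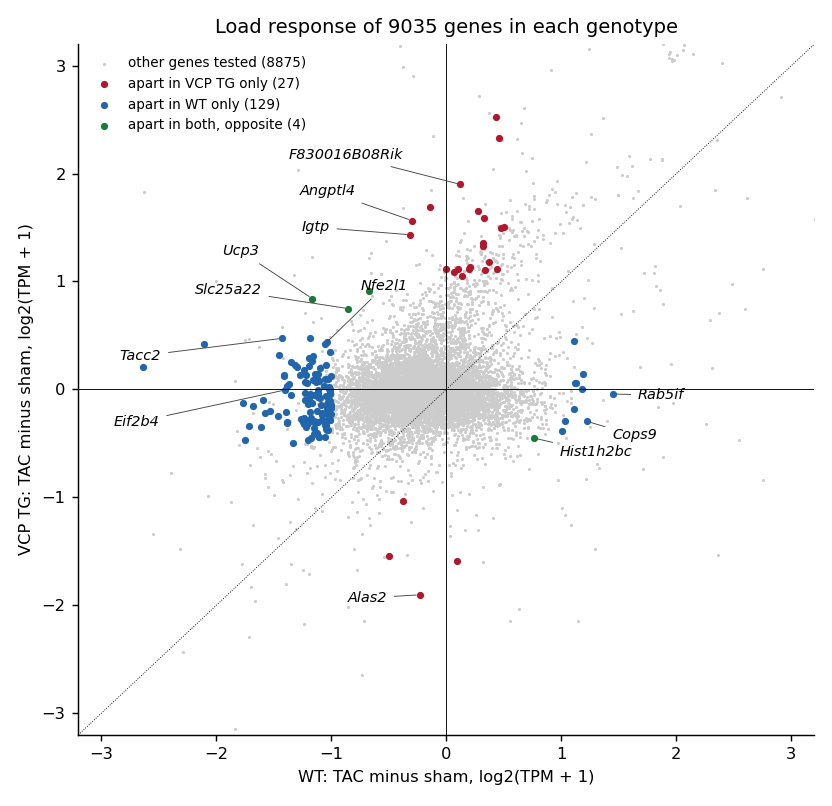
Load response (TAC minus sham, log2(TPM + 1)) of the 9035 genes tested, VCP TG on the vertical and WT on the horizontal axis; the dotted line marks equal responses and 17 genes lie beyond the axes. Coloured points are the 27 genes whose TAC and sham libraries were apart in VCP TG only, the 129 that were apart in WT only, most of them on the left, and the 4 that moved in opposite directions.

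Because the test of the difference called nothing, genes responding in 1 genotype are described by whether their libraries overlapped. TAC and sham libraries did not overlap for 205 genes in VCP TG hearts (2.27%), 130 higher (1.44%) and 75 lower after TAC. In WT hearts this held for 1838 genes (20.3%), 220 higher (2.43%) and 1618 lower. The smaller count in VCP TG hearts rested on VCP TG sham library 4. Without it, 2785 of 9023 genes were lower after TAC without overlap in VCP TG and 1618 in WT hearts. Chance also separates groups of 3 and 4 libraries more often than groups of 4 and 4, so the shares of the genotypes are not directly comparable. A gene was counted as apart in VCP TG only when its VCP TG libraries did not overlap with a log2 response of at least 1, while its WT libraries overlapped with a response under 0.5 in size, and the reverse defined WT only. There were 27 genes apart in VCP TG only (0.299%), 129 in WT only (1.43%) and 4 whose libraries did not overlap in either genotype but that moved in opposite directions (0.0443%). These classes carry no test of their own, and 41 genes were higher after TAC without overlap in both genotypes and 8 lower.

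Vcp itself stood at 135, 125 and 151 TPM in VCP TG TAC, at 89.1, 186, 156 and 73.5 TPM in VCP TG sham, at 119, 48.2, 47.7 and 50.3 TPM in WT TAC and at 62.9, 82.6, 57.2 and 45.7 TPM in WT sham libraries. The VCP TG TAC libraries were above all WT libraries. The library labelled WT TAC 1 lay above the libraries labelled VCP TG sham 1 and 4, and the library labelled VCP TG sham 4 also lay below 1 WT sham library. The library labelled VCP TG sham 1 was out of order only against WT TAC 1 and lay above all other WT libraries. Vcp thus put these 3 libraries out of the order of their labels. Without these 3 libraries the limma test called 0 differences between the genotypes (280 at an unadjusted p under 0.05), 0 load responses in VCP TG hearts (1422) and 355 in WT hearts. The load response of Vcp differed between the genotypes by 0.22 ± 0.47 (log2, SE; adjusted p = 0.948, limma).

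None of the usual markers of a loaded ventricle passed the test of the difference. Myh7, the slow beta-myosin of the fetal heart, was at 239 ± 40.2 TPM in VCP TG TAC and 366 ± 213 TPM in VCP TG sham libraries (SD, n = 3 and 4), and at 188 ± 29.1 TPM in WT TAC and 411 ± 55.9 TPM in WT sham libraries (SD, n = 4 each). It was thus lower after TAC in WT hearts without overlap, the reverse of its textbook direction. Myh6, the adult alpha-myosin, had a load response of -0.09 ± 0.33 in VCP TG and -0.72 ± 0.30 in WT hearts (log2, SE). The natriuretic peptide gene Nppa ranged over 23.6 to 1781 TPM in VCP TG TAC, 21.7 to 4864 TPM in VCP TG sham, 32.5 to 5174 TPM in WT TAC and 20.4 to 52.4 TPM in WT sham libraries. The summed level of 12 atrial markers, to which Nppa belongs, spanned 178 to 4411 TPM in VCP TG TAC, 254 to 12149 TPM in VCP TG sham, 159 to 10042 TPM in WT TAC and 211 to 343 TPM in WT sham libraries, and its part in the Nppa values was not tested. In whole tissue, fewer cells of a type and less RNA per cell cannot be told apart. Col1a1, the main fibrillar collagen, had a difference of -0.72 ± 0.75, and Atp2a2, the calcium pump of the sarcoplasmic reticulum, one of -0.25 ± 0.42 (log2, SE).

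Of the genes apart in VCP TG only, 3 encode interferon-inducible GTPases. These proteins assemble on the membranes around intracellular parasites, and their genes are switched on by interferon-gamma. F830016B08Rik, listed in RefSeq under the synonym Ifgga4, lies on chromosome 18 at 60293380 to 60303016 (GRCm38). It stood at 72.6, 48.6 and 58.7 TPM in VCP TG TAC and at 12.3, 18.2, 19.2 and 12.1 TPM in VCP TG sham libraries. In WT hearts it was at 15.7, 13.6, 21.7 and 12.8 TPM in WT TAC and at 14.0, 13.4, 12.5 and 17.7 TPM in WT sham libraries. All 3 VCP TG TAC libraries lay above every one of the other 12, which overlapped with each other. This gene rose in VCP TG hearts by 1.90 ± 0.28 (log2, SE; adjusted p = 0.00279, limma), against 0.12 ± 0.26 in WT hearts. The difference of 1.78 ± 0.38 had an unadjusted p of 7.34e-05 and an adjusted p of 0.663, the smallest over all genes tested. With a weight per library the adjusted p of this difference was 0.0179. The call within VCP TG hearts was lost with the receptor-gene level as covariate (response 1.55 ± 0.42, adjusted p = 0.641), with weights per group (adjusted p = 0.225), without VCP TG TAC library 1 (adjusted p = 0.111) and without the 3 libraries that Vcp put out of the order of their labels (adjusted p = 0.107, limma).

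Igtp (chromosome 11, 58199556 to 58207591, GRCm38), which encodes a GTPase of the immunity-related family, stood at 11.1, 7.88 and 10.7 TPM in VCP TG TAC and at 2.53, 4.90, 4.00 and 1.46 TPM in VCP TG sham libraries. In WT hearts Igtp was at 4.68, 2.64, 3.59 and 2.85 TPM in WT TAC and at 3.36, 3.39, 4.97 and 6.67 TPM in WT sham libraries. Again the 3 VCP TG TAC libraries lay above all others. Igtp reached 5 TPM in these 3 libraries and otherwise only in WT sham library 4. It thus entered the test only through the group in which it was high. The response was 1.43 ± 0.32 in VCP TG and -0.32 ± 0.30 in WT hearts, a difference of 1.75 ± 0.44 (log2, SE; adjusted p = 0.866, or 0.0189 with a weight per library, limma). Iigp1, another effector of the family, on chromosome 18 at 60376027 to 60392634, was at 16.9, 12.3 and 14.6 TPM in VCP TG TAC and at 5.41, 6.97, 8.83 and 4.21 TPM in VCP TG sham libraries. Iigp1 had 9.89, 5.25, 6.49 and 5.59 TPM in WT TAC and 4.50, 6.08, 4.56 and 8.06 TPM in WT sham libraries. Its VCP TG TAC libraries too were the 3 highest of 15, with a difference of 0.92 ± 0.40 (log2, SE; adjusted p = 0.866).

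Not every gene of the pathway was apart between TAC and sham libraries in VCP TG hearts. Irgm1, which regulates the effector GTPases and protects the cell's own membranes from them, was at 7.47 ± 0.745 TPM in VCP TG TAC and 6.33 ± 2.96 TPM in VCP TG sham libraries (SD, n = 3 and 4), and at 5.54 ± 0.305 TPM in WT TAC and 6.92 ± 0.803 TPM in WT sham libraries. Tgtp2, an effector, was at 8.10 ± 1.52 TPM in VCP TG TAC and 10.4 ± 6.21 TPM in VCP TG sham libraries, with a difference of -0.44 ± 0.58 (log2, SE). Of 15 interferon-inducible GTPases and regulators listed after values had been seen, 12 were measured well enough to test, 4 of them were higher without overlap in VCP TG hearts after TAC and 0 in WT hearts. Over all tested genes these shares were 1.44% in VCP TG and 2.43% in WT hearts, and the list was drawn up around genes already seen to be high. A broader list of interferon response genes had 15 of 28 members tested and a median difference of 0.10, against 0.21 over all genes tested. No set was tested against other genes.

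Promoters of Igtp, Irgm1 and Tgtp2, taken from RefSeq on GRCm38.p6, are shown because genes with different behaviour under load carry the same kind of element there. Each stretch runs 5′ to 3′ on the gene's own strand, from 250 bases before to 50 bases after the start site. Capitals mark 2 motifs: an interferon-stimulated response element (GAAANNGAAA) and a gamma-activated sequence (TTCNNNGAA), both searched on both strands.
Igtp promoter, chr11:58199306-58199605, plus strand: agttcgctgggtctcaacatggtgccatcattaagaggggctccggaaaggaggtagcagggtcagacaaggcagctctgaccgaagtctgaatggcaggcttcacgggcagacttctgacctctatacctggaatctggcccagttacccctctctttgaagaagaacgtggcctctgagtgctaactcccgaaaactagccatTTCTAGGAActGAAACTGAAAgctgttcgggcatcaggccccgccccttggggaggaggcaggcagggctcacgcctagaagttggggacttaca
Tgtp2 promoter, chr11:49064163-49064462, minus strand: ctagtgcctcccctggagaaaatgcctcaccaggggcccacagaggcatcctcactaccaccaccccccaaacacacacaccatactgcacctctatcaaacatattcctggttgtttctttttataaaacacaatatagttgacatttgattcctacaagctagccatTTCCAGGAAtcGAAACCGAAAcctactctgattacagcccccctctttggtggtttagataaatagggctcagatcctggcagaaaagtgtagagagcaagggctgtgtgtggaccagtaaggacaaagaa
Irgm1 promoter, chr11:48871371-48871670, minus strand: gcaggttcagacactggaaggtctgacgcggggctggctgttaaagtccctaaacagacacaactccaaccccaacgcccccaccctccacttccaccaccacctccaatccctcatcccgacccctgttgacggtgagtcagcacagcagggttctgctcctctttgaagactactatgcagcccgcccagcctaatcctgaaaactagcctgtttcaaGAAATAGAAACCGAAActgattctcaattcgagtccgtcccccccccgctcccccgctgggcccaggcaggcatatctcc
In the Igtp promoter the gamma-activated sequence began 45 bases and the response element 34 bases before the start site. The Tgtp2 promoter held the same pair, beginning 81 and 70 bases before the start site, although Tgtp2 overlapped between TAC and sham libraries in VCP TG hearts. The Irgm1 promoter held 2 overlapping response elements, the first 30 bases before the start site, and no gamma-activated sequence in this window. Of 32851 promoters of the same length, 1131 (3.44%) held the response element, 2726 (8.30%) the gamma-activated sequence and 149 (0.454%) both. A match describes letters and not binding.

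**Figure D2:**
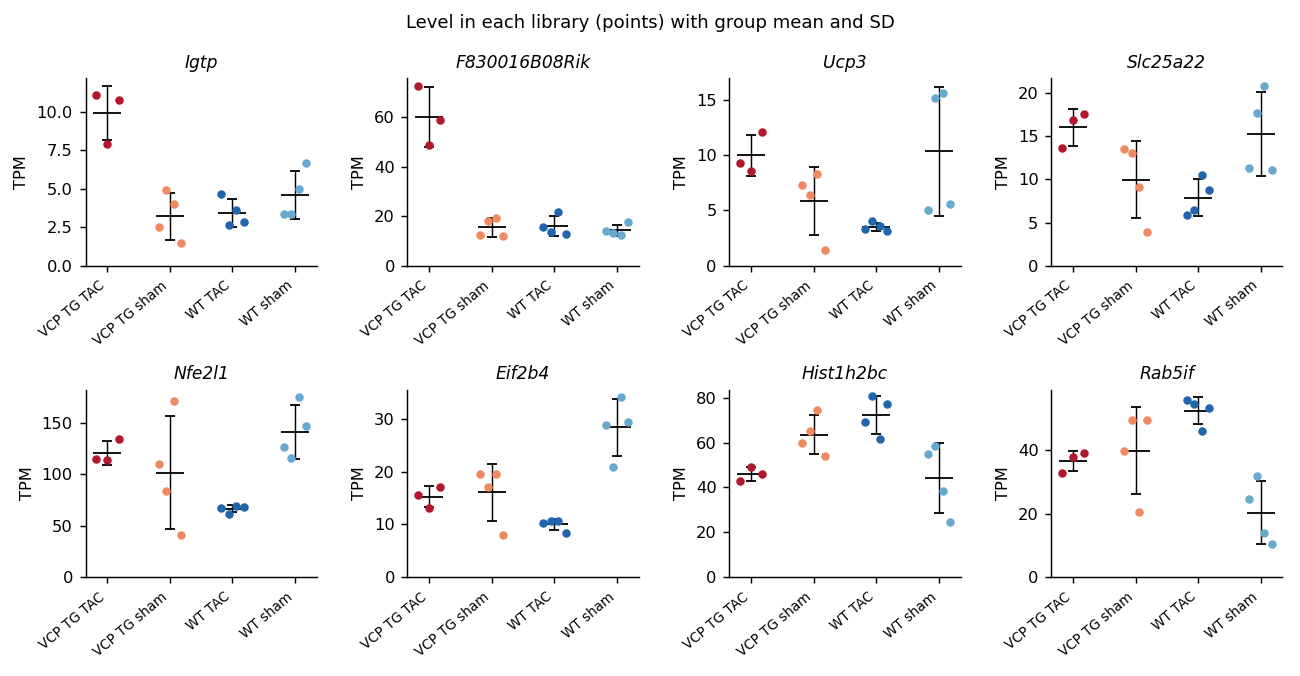
Level in TPM of 8 genes in each of the 15 libraries (points), with the group mean and SD (bars), for VCP TG TAC, VCP TG sham, WT TAC and WT sham. The 3 VCP TG TAC libraries stand above all others for Igtp and F830016B08Rik, while Ucp3 and Slc25a22 are high in VCP TG TAC and low in WT TAC libraries.

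The other 5 genes that rose in VCP TG hearts were Sly and 4 genes with predicted names or none, and their calls were lost under the same 4 settings. All 5 calls were also lost with a pseudocount of 0.1 TPM and after nuclear rescaling. The same held without VCP TG TAC library 3, VCP TG sham library 1, 2 or 4, WT TAC library 4, or WT sham library 2, 3 or 4. In each of these settings the call of F830016B08Rik held. Sly, a multicopy testis gene of the Y chromosome, was at 32.5, 12.0 and 14.8 TPM in VCP TG TAC, at 4.36, 3.08, 8.46 and 2.89 TPM in VCP TG sham libraries. The WT values of Sly were 5.93, 5.51, 9.37 and 5.42 TPM in WT TAC and 0.576, 2.25, 1.50 and 1.31 TPM in WT sham libraries. It was higher after TAC without overlap in both genotypes, by 1.84 ± 0.36 in VCP TG and 1.67 ± 0.33 in WT hearts (log2, SE), and the difference was 0.17 ± 0.49. The ratio of VCP TG TAC library 1 to library 2 was 2.71 for Sly, and the same ratio was 2.71 for the mean of the 1462 receptor genes.

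Of the 27 genes apart in VCP TG only, 23 were higher after TAC (0.255%), 12 of them with predicted names, and 4 were lower (0.0443%). After rescaling to nuclear protein-coding genes 8 of the 23 stayed in the class, after quantile normalization 16 and without VCP TG sham library 4 17. Over the 23, the median response was 1.43 in VCP TG and 0.28 in WT hearts, and 15 had an unadjusted p under 0.05 for the difference. The class was defined by these responses, so medians apart and small p-values follow from the choice of genes. Of all genes tested, 4.48% had an unadjusted p under 0.05 for the difference. The 95% interval of the WT response reached 1 for 8 of the 23, so a response of that size in WT hearts was within the error. Besides the GTPases, Angptl4, a secreted inhibitor of lipoprotein lipase that fatty acids induce, was at 7.50, 5.42 and 7.64 TPM in VCP TG TAC, at 1.86, 1.14, 4.07 and 0.548 TPM in VCP TG sham libraries. Its WT values were 3.20, 1.52, 0.879 and 1.86 TPM in WT TAC and 0.471, 4.34, 7.36 and 0.982 TPM in WT sham libraries. WT sham library 3 reached the VCP TG TAC range, and the difference was 1.86 ± 0.73 (log2, SE; adjusted p = 0.866, limma). Apart from WT sham library 3, only the VCP TG TAC libraries reached 5 TPM. Angptl4, like Igtp, thus entered the test only through the group in which it was high. Among all genes tested, 6 reached 5 TPM in VCP TG TAC libraries only, and 2 of these were in this class.

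Most of the remaining named genes of this class are not known as heart genes. Olfr613, an olfactory receptor, was at 55.1, 23.9 and 31.4 TPM in VCP TG TAC and at 10.2, 6.96, 23.3 and 6.56 TPM in VCP TG sham libraries. Hsd3b2, a steroid dehydrogenase, was at 39.1, 16.5 and 22.3 TPM in VCP TG TAC and at 7.49, 4.60, 15.5 and 5.38 TPM in VCP TG sham libraries. In both genes VCP TG TAC library 1 was the highest and VCP TG sham library 3 nearly reached VCP TG TAC library 2. Skint8 and Zfp979 had the same order, as had 15 of the 23 genes for the order of TAC libraries 1, 3 and 2 from high to low, which is the order of the receptor genes. VCP TG TAC library 1 exceeded library 2 by 2.31 times for Olfr613, 2.37 times for Hsd3b2 and 2.35 times for Skint8, and by 1.40 times for Igtp, 1.37 times for Iigp1 and 1.49 times for F830016B08Rik. The 3 GTPase genes had the order of the receptor genes as well. The part of this background in the class was not tested. Zdhhc21, a palmitoyltransferase, was at 15.4 ± 4.95 TPM in VCP TG TAC and 6.66 ± 2.55 TPM in VCP TG sham libraries (SD, n = 3 and 4), and at 6.55 ± 0.906 TPM in WT TAC and 6.55 ± 0.889 TPM in WT sham libraries. Rps2, a ribosomal protein gene with a difference of 1.02 ± 0.46, has near-identical copies that could share its reads, so its values are uncertain.

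Among the 4 genes lower after TAC in VCP TG only, 2 had names. Otud1, a deubiquitinase, was at 3.26, 3.35 and 3.68 TPM in VCP TG TAC and at 8.59, 10.1, 58.2 and 3.94 TPM in VCP TG sham libraries. Alas2, the enzyme that starts haem synthesis in red cell precursors, was at 7.15, 6.23 and 10.3 TPM in VCP TG TAC and at 36.2, 11.2, 205 and 11.1 TPM in VCP TG sham libraries. For both, VCP TG sham library 3 was far the highest, and neither difference had an unadjusted p under 0.05. The globin gene Hbb-bs had the same shape, with 28.8 to 39.9 TPM in VCP TG TAC and 50.5 to 936 TPM in VCP TG sham, against 32.0 to 65.5 TPM in WT TAC and 6.42 to 46.2 TPM in WT sham libraries. The summed level of the 8 red cell markers in the table, out of 9 listed and 5 tested, was 91.0 to 93.4 TPM in VCP TG TAC, 108 to 2195 TPM in VCP TG sham, 65.9 to 142 TPM in WT TAC and 25.2 to 107 TPM in WT sham libraries. The part of red cells in these values was not tested.

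Most genes apart in WT only were lower after TAC, 119 of 129 (1.32%). Their median response was -0.11 in VCP TG and -1.15 in WT hearts, and 52 had an unadjusted p under 0.05 for the difference. Both the medians and the small p-values follow from the definition of the class. Of all genes tested, 4.48% had an unadjusted p under 0.05 for the difference. Eif2b4 (chromosome 5, 31187558 to 31193430, GRCm38), a subunit of the exchange factor that recharges the translation initiator eIF2, was at 15.5, 13.2 and 17.0 TPM in VCP TG TAC, at 19.6, 17.1, 19.6 and 8.07 TPM in VCP TG sham libraries. Among WT libraries it was at 10.3, 10.7, 10.6 and 8.46 TPM in WT TAC and at 28.9, 20.98, 34.2 and 29.5 TPM in WT sham libraries. Its WT TAC libraries were all below the WT sham libraries by a wide gap, and the VCP TG TAC libraries fell within the VCP TG sham range only through VCP TG sham library 4. Without that library Eif2b4 was lower after TAC without overlap in VCP TG hearts too, with a response of -0.29 ± 0.19 and a difference of 1.12 ± 0.25. With all libraries the response was -0.01 ± 0.29 in VCP TG and -1.40 ± 0.27 in WT hearts, a difference of 1.40 ± 0.40 (log2, SE; adjusted p = 0.866, or 0.0189 with a weight per library, limma).

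Nfe2l1 (chromosome 11, 96817414 to 96829968, GRCm38) encodes a transcription factor of proteasome genes that sits in the endoplasmic reticulum until VCP extracts it. It was at 115, 113 and 134 TPM in VCP TG TAC, at 110.0, 83.4, 171 and 41.0 TPM in VCP TG sham libraries. Nfe2l1 was at 67.2, 61.6, 68.9 and 68.1 TPM in WT TAC and at 126, 115, 175 and 147 TPM in WT sham libraries. The VCP TG TAC libraries stood level with 2 of the WT sham libraries, whereas all WT TAC libraries lay far below them. The difference was 1.48 ± 0.45 (log2, SE; adjusted p = 0.866, or 0.0189 with a weight per library, limma). Of 31 proteasome subunits, the class of genes that it is known to drive, 0 had an unadjusted p under 0.05 for the difference, and the median response was -0.11 in both genotypes. Without VCP TG sham library 4 the VCP TG median was -0.31 and the median difference -0.26, against -0.06 over all genes tested. In that setting 18 subunits were lower after TAC without overlap in VCP TG and 6 in WT hearts. Over all genes tested, 2785 of 9023 were so in VCP TG and 1618 in WT hearts.

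Tacc2, a coiled-coil protein of the microtubule-organizing centre, was at 86.5, 75.4 and 107 TPM in VCP TG TAC, at 106, 85.0, 63.8 and 28.3 TPM in VCP TG sham, at 50.5, 72.2, 45.3 and 76.8 TPM in WT TAC and at 102, 116, 289 and 203 TPM in WT sham libraries. Plin4, a coat protein of lipid droplets, had a response of 0.32 ± 0.42 in VCP TG and -1.45 ± 0.39 in WT hearts (log2, SE). For Dot1l, the histone methyltransferase whose loss from heart muscle causes dilated cardiomyopathy in mice, the response was 0.31 ± 0.37 in VCP TG and -1.16 ± 0.34 in WT hearts. Cyth1, an exchange factor for Arf GTPases, had 0.21 ± 0.32 in VCP TG and -1.30 ± 0.30 in WT hearts. Spns2, the exporter of sphingosine-1-phosphate, along with Grrp1, Lrrc47 and Sh3tc1, gave differences of 1.30 to 1.66. Dot1l, Lrrc47 and Sh3tc1 passed with a weight per library (adjusted p 0.0338 to 0.0441), and Tacc2, Plin4, Cyth1, Spns2 and Grrp1 did not.

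In this class VCP TG sham library 4 stood apart. It was the lowest of the 4 VCP TG sham libraries in 116 of the 119 genes and the lowest of all 15 libraries in 100. Relative to the WT sham mean, the median gene of the class stood at -0.883, -0.997 and -0.655 in VCP TG TAC libraries, at -0.24, -0.61, 0.16 and -2.02 in VCP TG sham libraries, at -1.29, -1.09, -1.25 and -1.06 in WT TAC libraries and at -0.22, -0.08, 0.28 and 0.00 in WT sham libraries (log2(TPM + 1)). By these medians the VCP TG TAC libraries were below all WT sham libraries and below 3 of the 4 VCP TG sham libraries, and above VCP TG sham library 4. Without VCP TG sham library 4, 51 of the 119 genes stayed in the class, and without VCP TG sham libraries 3 and 4, 58 of the 117 still tested. The 95% interval of the VCP TG response reached -1 for 48 of the 119. Without VCP TG sham library 4 alone, 2785 of 9023 genes were lower after TAC without overlap in VCP TG hearts, against 75 of 9035 with it.

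**Figure D3:**
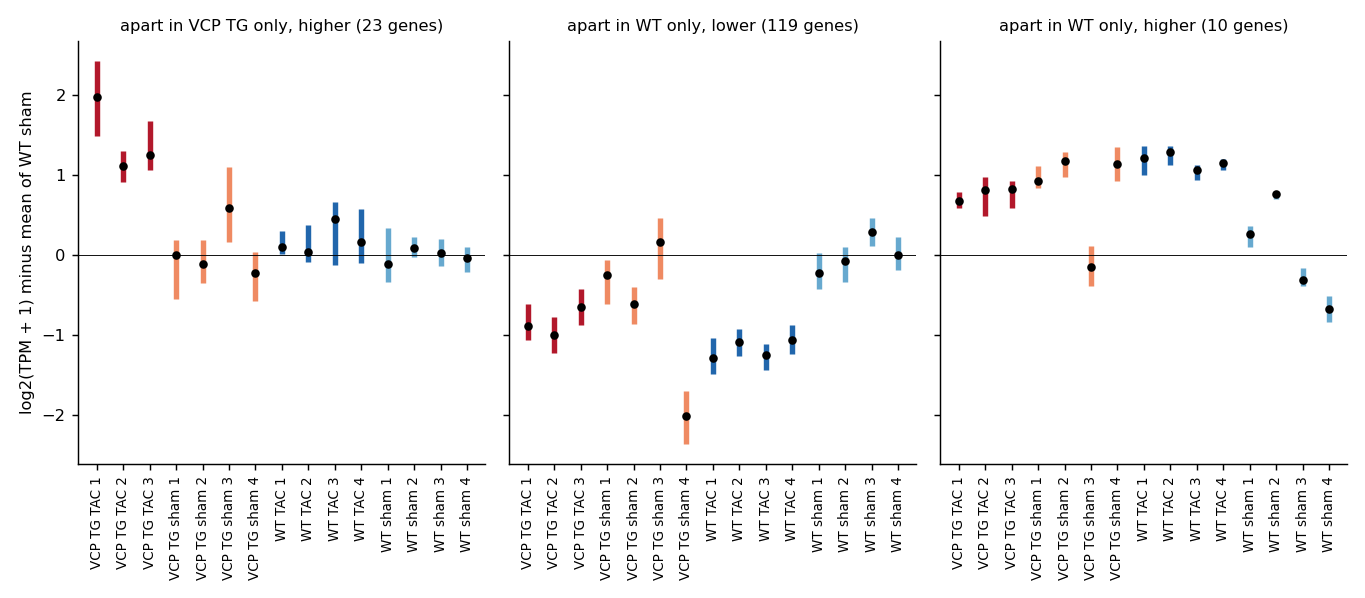
Median (point) and quartiles (bar) over the genes of a class in each library, as log2(TPM + 1) minus the mean of the WT sham libraries, for the 23 genes higher after TAC in VCP TG only and the 119 lower and 10 higher after TAC in WT only. VCP TG sham library 4 is the lowest point for the 119 genes at -2.02, and VCP TG sham library 3 the lowest VCP TG point for the 10 genes at -0.15.

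Of the 10 genes higher after TAC in WT only (0.111%), 8 had names, and several of these encode mitochondrial proteins. Rab5if, an assembly factor of the respiratory chain, was at 33.0, 38.0 and 39.1 TPM in VCP TG TAC, at 39.9, 49.7, 20.4 and 49.5 TPM in VCP TG sham libraries. It was at 55.9, 54.6, 46.3 and 53.5 TPM in WT TAC and at 24.7, 32.1, 14.0 and 10.6 TPM in WT sham libraries. WT TAC libraries lay well above WT sham libraries, and the difference was -1.49 ± 0.46 (log2, SE; adjusted p = 0.866, or 0.032 with a weight per library, limma). Ndufa12, a subunit of respiratory complex I, was at 328 ± 27.5 TPM in VCP TG TAC and 332 ± 107 TPM in VCP TG sham libraries (SD, n = 3 and 4), and at 438 ± 30.8 TPM in WT TAC and 212 ± 86.9 TPM in WT sham libraries (SD, n = 4 each). Cops9, the small subunit of the COP9 signalosome, had a difference of -1.52 ± 0.49, the import chaperone Timm8b one of -1.33 ± 0.49 and Hikeshi, which carries heat shock proteins into the nucleus, one of -1.30 ± 0.47 (log2, SE). Mrpl42 of the mitochondrial ribosome, Cox7a2 of cytochrome oxidase and the translation factor Tma7 completed the 8 named genes with differences of -0.66 to -1.17. Relative to the WT sham mean, the median gene of the class stood at 0.68 to 0.83 in VCP TG TAC libraries, at 0.93, 1.17, -0.15 and 1.14 in VCP TG sham libraries, at 1.06 to 1.29 in WT TAC libraries and at 0.26, 0.76, -0.31 and -0.67 in WT sham libraries (log2(TPM + 1)).

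Transcript length and single libraries moved with this class as well. The median summed exon length was 1429 bases for the 10 genes and 4520 bases for the tested genes with a length. The lowest VCP TG sham library was library 3 in all 10 genes, and WT sham library 3 or 4 was the lowest WT sham library in 9. Of the 10, 1 stayed in the class without VCP TG sham libraries 3 and 4. Across the tested nuclear protein-coding genes with a length, the median difference in load response was 0.01 in the fifth with the shortest exons and 0.29 in the fifth with the longest. The part of length in these differences was not tested beyond a fit with a length index as covariate, under which the signs of Mrpl42, Cox7a2 and Tma7 turned.

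The 4 genes that moved in opposite directions kept that description without VCP TG sham libraries 3 and 4 and after quantile normalization, but Ucp3 and Slc25a22 lost it after rescaling to nuclear protein-coding genes. Ucp3 (chromosome 7, 100472990 to 100486432, GRCm38), a carrier of the inner mitochondrial membrane that fatty acids induce in heart and skeletal muscle, was at 9.24, 8.59 and 12.1 TPM in VCP TG TAC, at 7.31, 6.35, 8.27 and 1.40 TPM in VCP TG sham libraries. Ucp3 was at 3.32, 4.00, 3.59 and 3.18 TPM in WT TAC and at 5.00, 15.2, 15.6 and 5.54 TPM in WT sham libraries. VCP TG TAC libraries were above the VCP TG sham libraries by a narrow gap, and WT TAC libraries were the lowest apart from VCP TG sham library 4. The response was 0.84 ± 0.41 in VCP TG and -1.17 ± 0.38 in WT hearts, and the difference of 2.01 ± 0.56 had an unadjusted p of 0.0015 and an adjusted p of 0.866, or 0.0395 with a weight per library (log2, SE; limma).

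Slc25a22, the mitochondrial glutamate carrier, was at 13.6, 16.8 and 17.5 TPM in VCP TG TAC, at 13.5, 13.1, 9.11 and 3.95 TPM in VCP TG sham libraries. Slc25a22 was at 5.85, 6.40, 10.5 and 8.79 TPM in WT TAC and at 11.3, 17.7, 20.8 and 11.1 TPM in WT sham libraries. The difference was 1.60 ± 0.46 (log2, SE; adjusted p = 0.866, limma), with groups that nearly touched in both genotypes. The long non-coding RNA 2810025M15Rik had a response of 0.91 ± 0.30 in VCP TG and -0.68 ± 0.27 in WT hearts. Hist1h2bc, a histone H2B gene, ran the other way, with 42.7, 48.9 and 45.8 TPM in VCP TG TAC, 59.9, 65.0, 74.7 and 54.1 TPM in VCP TG sham, 69.1, 80.7, 61.8 and 77.2 TPM in WT TAC and 54.9, 58.5, 38.5 and 24.6 TPM in WT sham libraries. Its difference was -1.22 ± 0.39 (log2, SE; adjusted p = 0.866, or 0.0338 with a weight per library). Of 10 histone genes tested, 2 had a lower response in VCP TG hearts at an unadjusted p under 0.05 and 0 a higher one, while the median difference was 0.02. Among all genes tested, 1.28% had a lower response at that p and 3.2% a higher one.

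Gene lists were read against the median of all tested genes, which was -0.03 in VCP TG and -0.19 in WT hearts, and against the share of all tested genes that were lower after TAC without overlap, 0.83% in VCP TG and 17.9% in WT hearts. Of 23 sarcomere and Z-disc genes, 0 were lower after TAC without overlap in VCP TG and 12 in WT hearts, with median responses of -0.12 in VCP TG and -0.47 in WT hearts. Tcap, which caps titin at the Z-disc, was at 544, 602 and 739 TPM in VCP TG TAC, at 543, 362, 1066 and 155 TPM in VCP TG sham, at 278, 422, 342 and 427 TPM in WT TAC and at 868, 495, 935 and 602 TPM in WT sham libraries. Its difference of 1.50 ± 0.58 was the only one of the list with an unadjusted p under 0.05. Without VCP TG sham library 4 the sarcomere list had a median of -0.43 in VCP TG hearts, 12 members were lower there without overlap, and the median difference was 0.01. Over all genes tested, 2785 of 9023 were lower without overlap in VCP TG hearts in that setting.

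Of 22 ion channel and intercalated disc genes, 0 were lower after TAC without overlap in VCP TG and 4 in WT hearts, and 3 had an unadjusted p under 0.05 for the difference. The counts without overlap were near the shares over all tested genes, 0.83% in VCP TG and 17.9% in WT hearts. An unadjusted p under 0.05 for the difference was found for 4.48% of all tested genes. Kcnj11, the pore of the ATP-sensitive potassium channel, was at 18.01, 17.4 and 21.1 TPM in VCP TG TAC, at 29.4, 18.6, 37.4 and 3.76 TPM in VCP TG sham libraries. Kcnj11 was at 8.19, 14.1, 10.9 and 13.0 TPM in WT TAC and at 35.4, 35.8, 36.6 and 22.0 TPM in WT sham libraries. Its WT TAC libraries lay below all WT sham libraries, and the VCP TG TAC libraries fell within the VCP TG sham range. For VCP TG TAC libraries 1 and 2 this held only through VCP TG sham library 4. The difference was 1.53 ± 0.67 for Kcnj11 and 1.42 ± 0.54 for Scn4b, a regulatory beta subunit of voltage-gated channels (log2, SE; adjusted p = 0.866 each, limma). The median difference of the list was -0.01 without VCP TG sham library 4.

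Among 30 genes of fatty acid uptake and oxidation, the median response was 0.05 in VCP TG and -0.29 in WT hearts, 0 were lower after TAC without overlap in VCP TG and 9 in WT hearts, and 4 had a higher response in VCP TG hearts at an unadjusted p under 0.05. Of all genes tested, 0.83% were lower without overlap in VCP TG and 17.9% in WT hearts, and 3.2% had a higher response at that p. Slc27a1, a fatty acid transport protein, was at 16.4, 17.4 and 25.6 TPM in VCP TG TAC, at 30.1, 15.3, 28.6 and 5.25 TPM in VCP TG sham libraries. Slc27a1 was at 8.27, 10.1, 8.67 and 9.34 TPM in WT TAC and at 20.3, 30.1, 27.9 and 19.8 TPM in WT sham libraries. Acacb, which makes the malonyl-CoA that restrains entry of fatty acids into mitochondria, had a difference of 1.04 ± 0.48 (log2, SE). The list had a median difference of 0.44, and of 0.43 after quantile normalization, where all genes had 0.00. It was 0.10 after nuclear rescaling and 0.16 without VCP TG sham library 4, and turned to -0.09 without VCP TG sham libraries 3 and 4, where all genes had 0.03. Mitochondrial biogenesis and dynamics (23 genes) had a median response of 0.02 in VCP TG and -0.36 in WT hearts, but one of -0.34 in VCP TG hearts without VCP TG sham library 4. Its coactivator Ppargc1a, at 222, 259.7 and 308 TPM in VCP TG TAC, 161, 188, 62.4 and 163 TPM in VCP TG sham, 219.7, 139.5, 70.9 and 108 TPM in WT TAC and 113, 176, 191 and 311 TPM in WT sham libraries, was higher in the 3 VCP TG TAC libraries than in all others except WT sham library 4.

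Growth signalling and protein disposal, in which VCP itself acts, were tested next. Of 28 mTOR and growth genes, 23 were tested, with a median response of -0.03 in VCP TG and -0.47 in WT hearts, and 2 had an unadjusted p under 0.05 for the difference. Akt1, the kinase that relays growth factor signals, was at 29.9 ± 4.28 TPM in VCP TG TAC and 22.9 ± 10.2 TPM in VCP TG sham libraries, and at 19.0 ± 0.529 TPM in WT TAC and 31.6 ± 7.28 TPM in WT sham libraries (SD, n = 3, 4, 4 and 4). Its difference was 1.17 ± 0.44 (log2, SE; adjusted p = 0.866, or 0.0338 with a weight per library, limma). The kinase Rps6kb1, downstream of mTOR, had 0.86 ± 0.41. Of 31 autophagy and lysosome genes tested, 0 were lower after TAC without overlap in VCP TG and 10 in WT hearts, and the processing protease Atg4b (0.97 ± 0.43) and the lipid scramblase Atg9a (0.96 ± 0.43) were among the 3 with an unadjusted p under 0.05. Of all genes tested, 0.83% were lower without overlap in VCP TG and 17.9% in WT hearts, and 4.48% had an unadjusted p under 0.05 for the difference. Without VCP TG sham library 4, 12 autophagy genes were lower without overlap in VCP TG and 10 in WT hearts. In that setting 2785 of all 9023 genes tested were so in VCP TG and 1618 in WT hearts. The growth and autophagy lists then had median differences below 0, at -0.19 and -0.07, where all genes had -0.06. VCP and its cofactors, 19 of 24 tested, had a median difference of 0.19 and 0 members with an unadjusted p under 0.05, and Selenos, the membrane anchor that recruits VCP to the endoplasmic reticulum, had -0.91 ± 0.45. The median difference of this list turned to -0.17 without VCP TG sham library 4, where all genes had -0.06.

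Chaperone lists had median differences below 0. Of 23 heat shock protein genes tested, 3 were lower after TAC without overlap in VCP TG and 4 in WT hearts, with a median response of -0.22 in VCP TG and 0.09 in WT hearts and a median difference of -0.36, against 0.21 over all genes. The shares without overlap over all tested genes were 0.83% in VCP TG and 17.9% in WT hearts, and the WT count was near its share. Hspe1, the mitochondrial co-chaperonin, was at 97.6, 109 and 106 TPM in VCP TG TAC, at 161, 157, 108 and 192 TPM in VCP TG sham libraries. Hspe1 was at 177, 172, 124 and 124 TPM in WT TAC and at 97.3, 132, 82.4 and 99.2 TPM in WT sham libraries. Its VCP TG TAC libraries sat at the low end of the VCP TG sham libraries and within the WT sham range, and the difference was -1.07 ± 0.37 (log2, SE; adjusted p = 0.866, or 0.0338 with a weight per library). Hsph1, a nucleotide exchange factor for heat shock proteins, had 10.4, 9.78 and 10.8 TPM in VCP TG TAC and 23.2, 30.0, 19.3 and 12.3 TPM in VCP TG sham libraries, against 20.2, 15.2, 16.7 and 14.7 TPM in WT TAC and 7.96, 32.9, 9.35 and 11.5 TPM in WT sham libraries. Its VCP TG TAC libraries lay below all VCP TG sham libraries, and the WT groups overlapped. Of 22 genes of endoplasmic reticulum stress tested, 3 had a lower response in VCP TG hearts at an unadjusted p under 0.05 and 0 a higher one. Among all genes tested, 1.28% had a lower response at that p and 3.2% a higher one. The 3 genes included the co-chaperone Dnajb9 (-0.95 ± 0.37) and the secreted stress protein Manf (-1.24 ± 0.53). For both lists the median difference stayed below 0 after quantile normalization, at -0.49 and -0.33.

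Over 40 nuclear-encoded subunits of the respiratory chain the median difference was -0.20, with 5 lower and 1 higher at an unadjusted p under 0.05. Among all genes tested, 1.28% were lower and 3.2% higher at that p. With the length index as covariate the median difference of the list turned to 0.22. Uqcrb, a small subunit of complex III, was at 1138 ± 111 TPM in VCP TG TAC and 1452 ± 523 TPM in VCP TG sham libraries, and at 1657 ± 192 TPM in WT TAC and 995 ± 324 TPM in WT sham libraries (SD, n = 3, 4, 4 and 4). Cox7c of cytochrome oxidase had a difference of -1.05 ± 0.42. Uqcrc1, a large core subunit of complex III, had one of 1.22 ± 0.52 in the other direction (log2, SE). The length covariate turned the sign for Uqcrb too.

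Immediate early genes, which muscle and other cells switch on within minutes of a stimulus, were lower after TAC in VCP TG hearts without overlap in 8 of 22 genes tested and in 2 in WT hearts, with 0 that had an unadjusted p under 0.05 for the difference. Of all genes tested, 0.83% were lower without overlap in VCP TG and 17.9% in WT hearts. Without VCP TG sham library 4, 18 members were so in VCP TG and 2 in WT hearts. In that setting 2785 of all 9023 genes tested were so in VCP TG and 1618 in WT hearts. Egr1, an early transcription factor, was at 3.33, 4.71 and 3.35 TPM in VCP TG TAC, at 99.5, 43.3, 296 and 26.1 TPM in VCP TG sham libraries. Egr1 was at 12.5, 3.58, 4.15 and 5.00 TPM in WT TAC and at 5.78, 99.9, 19.7 and 32.7 TPM in WT sham libraries. Btg2, an antiproliferative early gene, was at 4.44 ± 0.434 TPM in VCP TG TAC and 51.3 ± 57.9 TPM in VCP TG sham libraries, and at 8.14 ± 2.24 TPM in WT TAC and 18.01 ± 15.7 TPM in WT sham libraries (SD, n = 3, 4, 4 and 4). Both were low in every TAC library and widely spread over the sham libraries, and the difference was -2.03 ± 1.24 for Egr1 and -1.91 ± 1.01 for Btg2 (log2, SE).

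RNA splicing genes (29) had median responses of -0.07 in VCP TG and -0.36 in WT hearts, and of -0.39 in VCP TG hearts without VCP TG sham library 4. The splicing factor Srsf5 was at 71.7 ± 7.02 TPM in VCP TG TAC and 71.8 ± 36.8 TPM in VCP TG sham libraries, and at 51.8 ± 4.25 TPM in WT TAC and 97.1 ± 19.7 TPM in WT sham libraries (SD, n = 3, 4, 4 and 4), with an adjusted p of 0.866 for the difference, or 0.0338 with a weight per library (limma). Of the cell type lists, 15 endothelial markers had a median response of -0.03 in VCP TG and -0.48 in WT hearts, and of -0.48 in VCP TG hearts without VCP TG sham library 4. Their summed level was 664 to 785 TPM in VCP TG TAC, 404 to 965 TPM in VCP TG sham, 712 to 790 TPM in WT TAC and 894 to 1310 TPM in WT sham libraries, so WT TAC lay below WT sham without overlap. Fibroblast markers summed to 602 to 872 TPM in VCP TG TAC, 572 to 1532 TPM in VCP TG sham, 481 to 1292 TPM in WT TAC and 521 to 863 TPM in WT sham libraries, and these overlapped. The part of cell composition in the gene values was not tested.

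**Figure D4:**
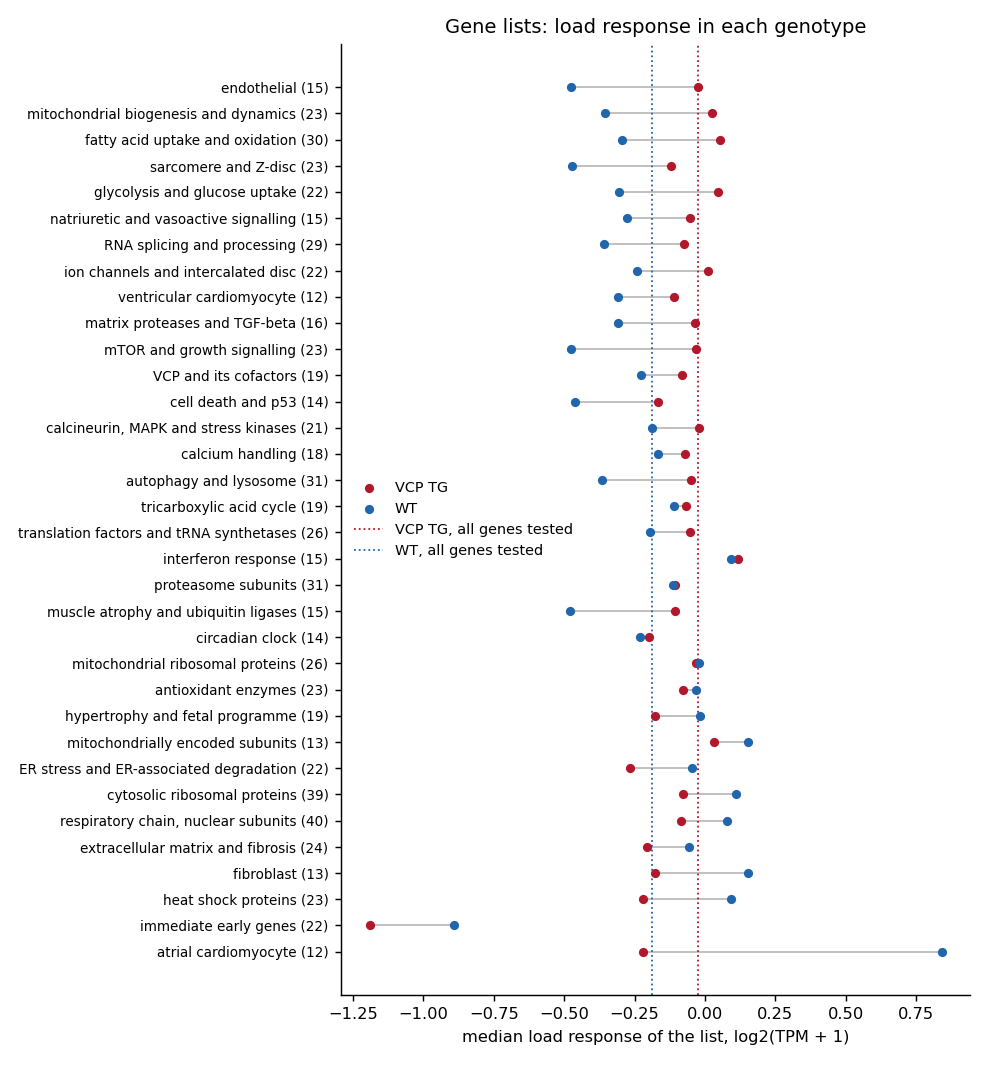
Median load response (TAC minus sham, log2(TPM + 1)) of 34 gene lists with at least 12 tested genes (number in brackets), in VCP TG and WT hearts, ordered by the median difference; dotted lines give the medians of all tested genes, -0.03 in VCP TG and -0.19 in WT. Sarcomere, endothelial, growth and fatty acid lists lie further left in WT, and heat shock and atrial lists further left in VCP TG, though without VCP TG sham library 4 the VCP TG medians of the sarcomere (-0.43) and endothelial (-0.48) lists lie beside those of WT (-0.47 and -0.48). Without VCP TG sham libraries 3 and 4 the atrial list had a VCP TG median of 1.54, against 0.84 in WT, and its median difference turned to 0.36.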

How the data were processed

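The deposited values of the 15 libraries are transcripts per 1000000 transcripts (TPM), read as such because each column of the authors' table sums to 1000000. Per the labels, RNA of left ventricles was made into stranded mRNA libraries. The submitters' processing notes name Trimmomatic 0.35, kallisto 0.43.1, STAR 2.5.4b, DESeq2 and GRCm38 without their roles, so the tool behind the TPM values is unknown. TPM shares a fixed total, so abundant transcripts lower all others in a library, and the mitochondrially encoded share ran from 27.9% to 72.9%. The deposited table of 7 libraries of 5 weeks was not used.

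Genes reaching 5 TPM in 3 or more libraries entered limma 3.58.1 (R 4.3.3). The fit used log2(TPM + 1), a mean for each of the 4 groups, robust moderation and a variance trend. Tests were two-sided, with Benjamini-Hochberg adjustment over 9035 genes and a threshold of 0.05. A pseudocount of 1 understates the change of low genes. The script was tested on simulated data. Names, types and positions came from GENCODE M21 on GRCm38 (30074 of 30735 identifiers found), and promoters from RefSeq. Alternatives covered pseudocounts, filters, scaling, variance settings, weights, covariates and left-out libraries.

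Members, gene lists and alternatives were chosen with earlier results of these data known. Genes named were Vcp, 7 load markers, up to 10 per direction with the smallest p of the difference among genes passing the test or apart in 1 genotype, up to 6 opposite genes and up to 4 per list described, leaving out predicted names. F830016B08Rik, 2810025M15Rik, Sly, Irgm1, Tgtp2 and Selenos were named outside this rule after their values were seen. Some genes that the rule would name are not reported here.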

Additional observations from a re-analysis of the deposited data

Results flagged for a closer look

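In 22 of the 201 groups of 4 libraries looked at among the genes named, 1 library lay far from the other 3 by Dixon's criterion, which chance meets in about 1 of 20 groups. VCP TG sham library 3 was such a library for 9 genes and the library labelled WT TAC 1 for 6, and the reason was not tested. VCP TG sham library 3 was far above the other VCP TG sham libraries for Nppa (4864 TPM), Hbb-bs (936 TPM), Alas2 (205 TPM), Otud1 (58.2 TPM) and Sh3tc1 (4.73 TPM). It was far below them for Uqcrb (676 TPM), Ndufa12 (171 TPM), Mrpl42 (153 TPM) and Timm8b (61.7 TPM).

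The library labelled WT TAC 1 was far above the other WT TAC libraries for Vcp (119 TPM), Nppa (5174 TPM), Nppb (345 TPM), Manf (54.1 TPM), Dnajb9 (41.4 TPM) and Egr1 (12.5 TPM). WT TAC library 2 stood high for Mrpl42 (492 TPM) and Myh7 (232 TPM), WT TAC library 3 for Sly (9.37 TPM), and WT TAC library 4 high for Lrrc47 (7.19 TPM) and low for Eif2b4 (8.46 TPM). Among WT sham libraries, library 2 was high for Hsph1 (32.9 TPM) and library 4 low for Kcnj11 (22.0 TPM).

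For 4 genes every TAC library moved one way against the sham libraries in VCP TG hearts and the opposite way in WT hearts. The difference in load response, VCP TG minus WT, was 2.01 for Ucp3, 1.60 for Slc25a22, 1.59 for 2810025M15Rik and -1.22 for Hist1h2bc on the log2 scale. The unadjusted p of the difference was 0.0015, 0.00187, 0.000581 and 0.00431 in that order, and the adjusted p was 0.866 for each (limma), so none passed the correction.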

How the results depend on the processing

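The joint fit called 0 differences, 6 load responses in VCP TG and 0 in WT hearts, with 27, 129 and 4 genes apart in VCP TG only, in WT only and in opposite directions, and counts below keep that order. A pseudocount of 0.1 TPM gave 0, 1, 5, 31, 181 and 4, and one of 5 TPM gave 0, 82, 0, 16, 48 and 4. A filter of 1 TPM in 3 libraries gave 1, 120, 0, 150, 159 and 10, one of 5 TPM in 8 libraries 0, 28, 0, 17, 105 and 4, and no filter 24, 1846, 0, 202, 161 and 11. Nuclear rescaling gave 0, 5, 13, 49, 105 and 26, and quantile normalization 0, 32, 4, 24, 76 and 4. For differences, VCP TG and WT responses alone, the fit with no variance trend and no robust moderation gave 0, 30 and 7, weights per library 145, 1051 and 2443, and weights per group 0, 0 and 1042. The receptor-gene level as covariate gave 0, 0 and 6, and the length index as covariate 2, 119 and 42. Fits of 1 genotype gave 11 VCP TG and 1097 WT responses. Leaving out the 4 libraries rich in atrial genes gave 0, 328, 1373, 267, 74 and 231. Without VCP TG sham library 1 and WT TAC library 1 the counts were 0, 1, 1, 31, 145 and 9, and without VCP TG sham library 4 as well 0, 0, 355, 68, 54 and 18. Dropping VCP TG sham libraries 3 and 4 gave 0, 310, 1731, 222, 63 and 107. The last 2 settings and both covariates were added after seeing the data.

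With each library left out in turn, counts ranged over 0 to 1 for the difference, 0 to 301 for VCP TG, 0 to 1121 for WT, 18 to 219 for VCP TG only, 62 to 205 for WT only and 4 to 71 for opposite genes. Calls in VCP TG hearts were 0 without VCP TG TAC library 1, 24 without VCP TG TAC library 2, 301 and 3 without VCP TG sham libraries 3 and 4, 42 without WT TAC library 2 and 51 without WT sham library 1. They were 2 without WT TAC library 1, 7 without WT TAC library 3, and 1 without VCP TG TAC library 3, VCP TG sham library 1 or 2, WT TAC library 4 or WT sham library 2, 3 or 4. Calls in WT hearts were 1121 and 36 without VCP TG sham libraries 4 and 3, and 0 to 5 without any other library. Genes apart in VCP TG only were 219, 105 and 56 without VCP TG sham library 3, VCP TG TAC library 2 and VCP TG sham library 4, and 18 without VCP TG TAC library 1. Genes apart in WT only were 62 without VCP TG sham library 4 and 205 without WT sham library 1. Opposite genes were 71 and 12 without VCP TG sham libraries 3 and 4, 17 without WT sham library 2 and 11 without VCP TG TAC library 2. A smaller sham group has fewer chances to overlap, and other causes were not tested.

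A replicate block on the shared replicate numbers gave 0 differences, 54 VCP TG and 5 WT responses. Deviations of same-numbered libraries correlated at -0.277 to 0.299. They were above 0 for all 4 pairs of sham libraries but only 0.058 for one, and 4 of 8 sham libraries correlated best with their own number, so the numbers were not read as pairs. For the 67 genes named, the difference kept its sign and its side of the threshold in 2089 values, passed the threshold in 26, all with weights per library, and turned in 15. Sly turned to -0.19 with a pseudocount of 0.1 TPM, -0.38 with nuclear rescaling, -0.34 with the receptor covariate, and -0.68 with the length covariate. Sly turned to -0.082 and Acta1 to -0.34 without VCP TG sham libraries 1 and 4 and WT TAC library 1. Vcp turned to -0.12 with nuclear rescaling. With the length covariate, Myh7 turned to -0.29, Irgm1 to -0.074, Uqcrb to 0.021, Mrpl42 to 0.089, Tma7 to 0.11 and Cox7a2 to 0.17. With single libraries left out, Sly ranged from -0.24 to 0.45 and Vcp from -0.00722 to 0.53. The cause was not tested. With 3 or 4 libraries a group, the median standard error of the difference was 0.43 on the log2 scale, which limits what could be detected, and depth is unknown.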

Other observations

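Further pathways that are known to move with load differed in how far apart their medians were. Glycolysis and glucose uptake (22 genes) had a median response of 0.05 in VCP TG and -0.31 in WT hearts, and 1 gene had a higher response in VCP TG hearts at an unadjusted p under 0.05. Among all genes tested, 3.2% had a higher response at that p. The VCP TG median of the glycolysis list was -0.33 without VCP TG sham library 4. The tricarboxylic acid cycle (19 of 20 genes tested) had medians of -0.07 in VCP TG and -0.11 in WT hearts. Calcium handling (18 of 20) had -0.07 in VCP TG and -0.17 in WT hearts, with 0 genes lower after TAC without overlap in VCP TG and 6 in WT hearts, but 6 in each without VCP TG sham library 4. Over all genes tested, 0.83% were lower without overlap in VCP TG and 17.9% in WT hearts. Without VCP TG sham library 4 this held for 2785 of 9023 genes in VCP TG and 1618 in WT hearts. Extracellular matrix genes (24 of 32) had -0.21 in VCP TG and -0.06 in WT hearts, with 0 at an unadjusted p under 0.05 for the difference. Circadian clock genes (14 of 19) had -0.20 in VCP TG and -0.23 in WT hearts.

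Of the protein synthesis lists, 39 cytosolic ribosomal protein genes had a median response of -0.08 in VCP TG and 0.11 in WT hearts, and 26 mitochondrial ribosomal protein genes -0.03 in VCP TG and -0.02 in WT hearts. Ubiquitin ligases and other genes of muscle atrophy (15 of 19) had -0.11 in VCP TG and -0.48 in WT hearts, with 0 genes lower after TAC without overlap in VCP TG and 6 in WT hearts. The shares over all genes tested were 0.83% in VCP TG and 17.9% in WT hearts. Without VCP TG sham library 4, 11 genes of the atrophy list were lower in VCP TG hearts and 6 in WT hearts, and its median difference was -0.25, against -0.06 over all genes tested. In that setting 2785 of all 9023 genes tested were lower without overlap in VCP TG and 1618 in WT hearts.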
